A study of Homo sapiens with 12 samples.

Results

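The 10 heat shock genes described here were chosen by name from the 58735 genes of the deposited count table: HSPA1A, HSPA1B, HSPA8, HSPH1, DNAJB1, HSPB1, HSP90AA1, HSPD1, BAG3 and HSF1. All 10 passed the filter on low counts in every comparison. They were grouped as cytosolic heat shock genes, although 2 of them do not answer to that name: HSPD1 encodes the HSP60 chaperonin of mitochondria, and HSF1 encodes the transcription factor of the heat shock response and not a chaperone.

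Heat shock proteins bind unfolded proteins and help them fold, keep them soluble or pass them on for degradation. HSP70 proteins such as HSPA8 and HSPA1A are loaded with substrates by J proteins and reset by nucleotide exchange factors, and they hand part of their substrates to HSP90. When unfolded proteins build up, HSF1 forms trimers that bind heat shock elements, inverted repeats of the letters GAA, in front of the inducible chaperone genes.

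The study measured mRNA by sequencing in HK-2 cells, an immortalised human line derived from proximal tubule epithelium, as a culture model of drug-induced acute kidney injury. The 12 samples formed 4 groups of 3: a control group given water, and groups given iohexol (an iodinated contrast agent) at 75 mg I/mL, cisplatin (a platinum chemotherapy drug) at 5 μM or vancomycin (a glycopeptide antibiotic) at 4 mM for 48 h. All groups were 1 cell line grown in 1 medium with serum, and each drug was used at 1 dose and 1 time, so the doses of the drugs are not matched. Nothing in the sources used here says that the 3 samples of a group were separate cultures, so p-values measure the spread between these samples, which may be technical.

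Total counts per sample ran from 14057282 to 18177109, and the 10 genes together held 0.408% to 0.595% of them. Epithelial and proximal tubule markers were present in part: 8 of 11 reached a mean of 1 CPM (counts over library size as scaled by TMM factors) in at least 1 group, led by KRT8, KRT18 and GGT1, while AQP1, SLC34A1 and LRP2 stayed under 1 CPM in every group. The 11 together summed to 999 to 1136 CPM in the control group and 859 to 1034 CPM with iohexol. With cisplatin they summed to 1415 to 1499 CPM, and with vancomycin to 1684 to 1791 CPM. From control to cisplatin EPCAM fell (mean 102 and 35.3 CPM) while KRT8 rose (498 and 841 CPM). None of 4 leukocyte markers reached 1 CPM, and 1 of 3 endothelial and 1 of 4 other nephron markers did. The endothelial one, PECAM1, had a mean of 1.34 CPM in the control group, 3.78 with iohexol, 1.85 with cisplatin and 0.08 with vancomycin. The summed level of 3 fibroblast and mural markers, COL1A1, PDGFRB and DCN, also moved with the drugs. It was 37.7 to 47.9 CPM in the control group and 28.1 to 31.6 CPM with iohexol. With cisplatin it was 49.99 to 53.9 CPM, and with vancomycin 69.5 to 78.1 CPM. The 3 did not move together: from control to cisplatin DCN fell (mean 12.4 and 2.69 CPM) while COL1A1 rose (30.9 and 48.5 CPM). None of these 3 was at 0 throughout a group. The part of any marker in the results below was not tested. In such bulk samples a smaller number of cells of one kind and less RNA in each cell cannot be told apart.

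The promoters are shown because the heat shock element in them is the sequence that HSF1 reads. RefSeq gave windows for 9 of the 10 genes, and HSF1 was not matched. The 250 bases before each annotated start were searched on both strands, with overlapping matches allowed, for 2 adjoining units, GAANNTTC or TTCNNGAA, and for 3 adjoining units, GAANNTTCNNGAA or TTCNNGAANNTTC. A match of 3 units contains 2 overlapping matches of 2 units. Such a 2-unit match was in a window of 7 of the 9 genes, against 13.96% of all 27305 genes with windows, and a 3-unit match was in a window of HSPA8, HSP90AA1 and HSPD1, against 0.557% of all genes. The stretches below are from GRCh38.p14, read 5′ to 3′ on the strand of the gene, with matches in capitals. HSPA1A (chr6:31815293-31815463, plus strand) and HSPA1B (chr6:31827488-31827734, plus strand) are shown up to the first exon base of GENCODE 29.
HSPA1A: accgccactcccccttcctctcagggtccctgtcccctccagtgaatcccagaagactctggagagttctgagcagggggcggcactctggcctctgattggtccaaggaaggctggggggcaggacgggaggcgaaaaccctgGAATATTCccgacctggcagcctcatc
HSPA1B: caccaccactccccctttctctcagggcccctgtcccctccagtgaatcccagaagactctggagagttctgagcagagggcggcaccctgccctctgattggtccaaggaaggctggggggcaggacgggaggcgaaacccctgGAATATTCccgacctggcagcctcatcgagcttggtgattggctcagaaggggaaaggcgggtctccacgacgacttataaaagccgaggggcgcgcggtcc
The windows of this pair were 93.6% identical over 250 bases and each held 1 match. The other stretches are shorter. DNAJB1 (chr19:14518421-14518492, minus strand) and HSPB1 (chr7:76302473-76302516, plus strand) lie outside annotated exons, while HSPA8 (chr11:123062347-123062373, minus strand), HSP90AA1 (chr14:102087105-102087132, minus strand) and HSPD1 (chr2:197500063-197500090, minus strand) lie in bases that some transcript of GENCODE 29 has in an exon. Where a gene has several annotated starts, the window that held matches is shown, and of the 4 matches in the HSPA8 window the 2 farther from the start are shown.
HSPA8: cgagcttGAAAGTTCCAGAAcgctgcg
DNAJB1: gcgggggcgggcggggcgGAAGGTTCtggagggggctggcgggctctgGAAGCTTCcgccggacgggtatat
HSPB1: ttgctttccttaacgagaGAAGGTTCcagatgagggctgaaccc
HSP90AA1: TTCCGGAAGGTTCgggaggcTTCTGGAA
HSPD1: gcattTTCTGGAAAGTTCTGGAAccgag
The HSPH1 and BAG3 windows held neither motif, which says only that these letters are not in those 250 bases.

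For comparison between genes, levels in the control group were divided by the exonic length in the deposited table and are given as CPM per kilobase ± SD (n = 3). HSPB1, the small heat shock protein HSP27, was highest at 498 ± 11.0, followed by the constitutive HSP70 gene HSPA8 at 269 ± 20.0, HSP90AA1 at 261 ± 23.4 and HSPD1 at 184 ± 11.4. The remaining genes were much lower: DNAJB1 at 37.4 ± 1.79, BAG3 at 27.4 ± 1.86, HSPH1 at 26.6 ± 3.19, HSF1 at 21.8 ± 2.03, HSPA1A at 20.2 ± 0.872 and HSPA1B at 17.1 ± 2.53. HSPA8 and HSP90AA1, BAG3 and HSPH1, and HSF1 and HSPA1A were each closer together than the larger SD of the pair. With vancomycin the inducible HSP70 genes passed DNAJB1, BAG3, HSPH1 and HSF1 on the same scale, HSPA1A reaching 84.4 ± 7.92 and HSPA1B 82.0 ± 6.96, a pair that differed by less than its SD.

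**Figure D1:**
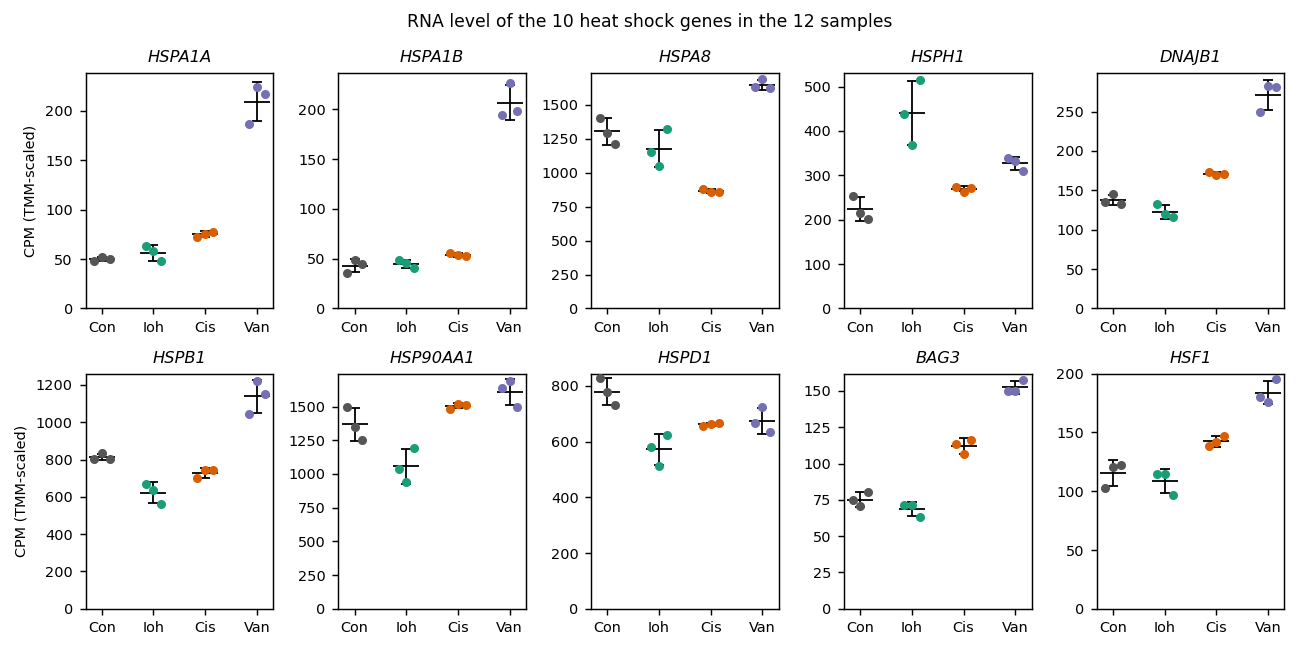
RNA level of each of the 10 genes in CPM (vertical axes, each from 0) in the 3 samples of the control (Con), iohexol (Ioh), cisplatin (Cis) and vancomycin (Van) groups, with the group mean (horizontal bar) and SD (error bar). HSPA1A and HSPA1B stand far above the other groups with vancomycin, HSPH1 is highest with iohexol, and HSPA8 is lowest with cisplatin.

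The first question was which of the 10 genes changed with each drug against the control group. With vancomycin 8 of the 10 rose, 1 fell and 1 did not pass the test, where 29.0% of all 15819 genes tested rose and 28.8% fell (edgeR's quasi-likelihood test, adjusted p under 0.05). With cisplatin 7 rose and 3 fell, where 29.2% of 15876 genes rose and 30.6% fell. With iohexol 1 rose, 3 fell and 6 did not pass, where 11.2% of 15657 genes rose and 9.77% fell. The all-gene iohexol shares depended on single samples. Without control sample 2 they were 6.34% and 5.07%, with 1 of the 10 genes falling, and without iohexol sample 2 they were 7.01% and 6.17%. Without iohexol sample 3 they were larger, at 14.8% and 13.5%. Iohexol sample 3 differed more from iohexol samples 1 and 2 than those differed from each other. The median log2 fold change of the 10 genes was 0.58 with vancomycin, 0.30 with cisplatin and -0.10 with iohexol, beside -0.01, 0.01 and 0.01 over all genes tested.

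Differentially expressed genes (DEGs) were those that also changed more than 2-fold. With vancomycin 2 of the 10 were up-regulated DEGs, HSPA1A and HSPA1B, and none was down-regulated, beside 10.8% and 7.65% of all genes. DNAJB1 and BAG3 lay at the threshold of 1, with log2 fold changes from 0.87 to 1.01 and from 0.91 to 1.03 over 16 alternatives. With iohexol HSPH1 was the 1 up-regulated DEG and none was down-regulated, beside 4.02% and 1.25%. With cisplatin none of the 10 was a DEG in either direction, beside 7.62% and 8.72%, although all 10 passed the test. The 3 comparisons share the same 3 control samples.

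Scaling moved the cisplatin comparison most. With library size as the only scaling, the all-gene median with cisplatin moved from 0.01 to 0.23 on the log2 scale, and 43.6% of genes rose and 20.4% fell. Of the 10 genes, 7 then rose and 1 fell. The corresponding splits were 14.3% and 6.89% with iohexol, and 25.5% and 33.0% with vancomycin. Changes below are relative to the TMM scale.

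**Figure D2:**
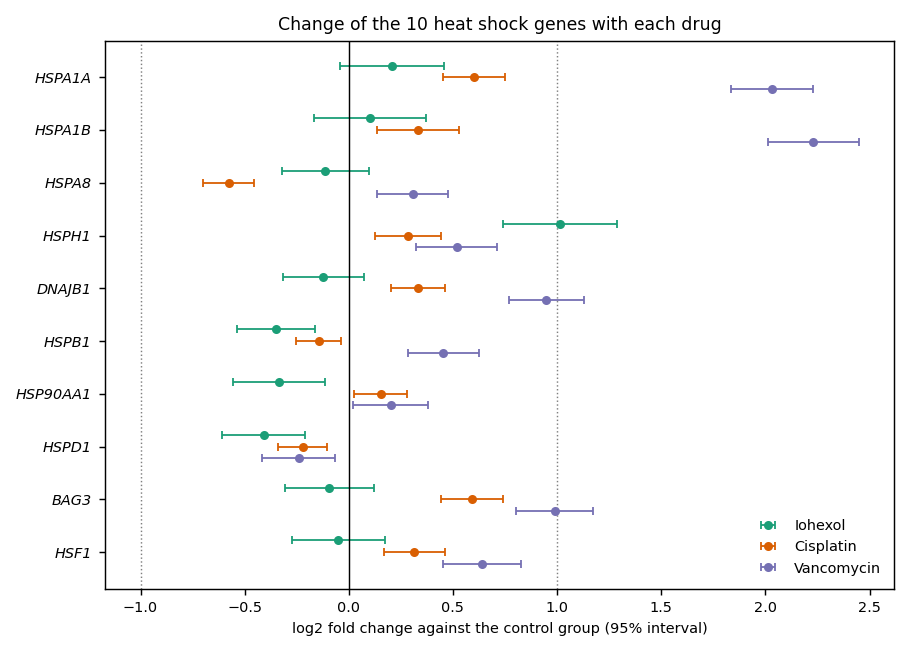
Log2 fold change of the 10 genes with iohexol, cisplatin and vancomycin against the control group (horizontal axis), as points with 95% intervals from edgeR, with dotted lines at a 2-fold change. The vancomycin points of HSPA1A (2.03) and HSPA1B (2.23) and the iohexol point of HSPH1 (1.01) lie past the upper dotted line.

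HSPA1A (ENSG00000204389, chr6:31815464-31817946, plus strand) and HSPA1B (ENSG00000204388, chr6:31827735-31830255, plus strand) encode the stress-inducible HSP70. HSPA1A stood at 47.8, 52.0 and 50.5 CPM in the control samples, 63.0, 58.5 and 47.6 CPM with iohexol, 72.1, 75.8 and 77.9 CPM with cisplatin and 187, 224 and 217 CPM with vancomycin. Every vancomycin sample was above every other sample, the cisplatin samples lay above both remaining groups, and the iohexol and control samples overlapped. HSPA1A rose 4.09-fold with vancomycin (log2 fold change 2.03, SE 0.09, adjusted p = 1.3e-14) and 1.52-fold with cisplatin (log2 fold change 0.60, SE 0.07, adjusted p = 1.09e-06). With iohexol its log2 fold change was 0.21 (95% interval -0.04 to 0.46, adjusted p = 0.23), and it passed the test only without iohexol sample 3, at 0.31 with an adjusted p of 0.0177.

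HSPA1B stood at 35.9, 48.2 and 45.1 CPM in the control samples, 48.5, 46.0 and 40.5 CPM with iohexol, 55.4, 53.4 and 52.4 CPM with cisplatin and 195, 227 and 199 CPM with vancomycin. Its groups separated as those of HSPA1A did. HSPA1B rose 4.69-fold with vancomycin (log2 fold change 2.23, SE 0.11, adjusted p = 1.85e-14) and 1.26-fold with cisplatin (log2 fold change 0.33, SE 0.09, adjusted p = 0.00521), and with iohexol its log2 fold change was 0.10 (95% interval -0.17 to 0.37). Of all genes tested with vancomycin, 2.94% had a larger log2 fold change than HSPA1A and 2.21% a larger one than HSPA1B.

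The pair is nearly identical in sequence: 73.6% of the 31-base words of HSPA1A transcripts also occur in HSPA1B, so counts could be split or exchanged between them, and how the authors' counting treated such reads is not given in the sources used here. Their count ratio, HSPA1A to HSPA1B, lay between 1.08 and 1.33 in the control group, between 1.17 and 1.30 after iohexol, between 1.30 and 1.49 after cisplatin and between 0.962 and 1.09 after vancomycin. Summed as 1 gene, the pair had a log2 fold change of 2.13 with vancomycin, 0.48 with cisplatin and 0.16 with iohexol (adjusted p = 5.28e-15, 1.15e-05 and 0.335).

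Fold changes varied with gene length. Both HSP70 genes are among the shortest of 4 equal length classes of the genes tested, whose median log2 fold change was 0.21 with vancomycin and 0.26 with cisplatin, against -0.16 and -0.24 in the longest class. HSPA1B has a single exon, and 208 other intronless protein-coding genes without histones had a median of 0.04 with vancomycin, while 211 such genes had a median of 0.29 with cisplatin. HSPA1B itself had 0.33 with cisplatin and 2.23 with vancomycin. The part of length in these results was not tested, and these sets were chosen after the values of the pair were seen.

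HSPA8 (ENSG00000109971, chr11:123057489-123063230, minus strand) encodes HSC70, the HSP70 that cells carry without stress. It stood at 1405, 1294 and 1212 CPM in the control samples, 1155, 1050 and 1320 CPM with iohexol, 882, 857 and 856 CPM with cisplatin and 1628, 1690 and 1627 CPM with vancomycin. The cisplatin samples were the lowest of all 12 and the vancomycin samples the highest, while iohexol and control samples overlapped. HSPA8 fell by 0.58 on the log2 scale with cisplatin (SE 0.06, adjusted p = 1.78e-07) and rose by 0.31 with vancomycin (SE 0.08, adjusted p = 0.00295), whereas HSPA1A and HSPA1B rose with both drugs. With iohexol its log2 fold change was -0.11 (95% interval -0.32 to 0.10).

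HSPH1 (ENSG00000120694, chr13:31134974-31162388, minus strand) encodes HSP105, an HSP110-type protein that acts as a nucleotide exchange factor for HSP70. It stood at 253, 216 and 201 CPM in the control samples, 438, 369 and 514 CPM with iohexol, 273, 263 and 272 CPM with cisplatin and 338, 333 and 310 CPM with vancomycin. Every iohexol sample was above every other sample, and the cisplatin samples lay just above the highest control sample. HSPH1 rose 2.02-fold with iohexol (log2 fold change 1.01, SE 0.12, adjusted p = 0.000149), 1.43-fold with vancomycin (log2 fold change 0.52, SE 0.09, adjusted p = 4.84e-05) and 1.22-fold with cisplatin (log2 fold change 0.28, SE 0.07, adjusted p = 0.00334).

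The call of HSPH1 as a DEG with iohexol rests on a value at the threshold of 1: over 16 alternatives its log2 fold change ran from 0.89, without iohexol sample 3, to 1.12, and all 16 kept an adjusted p under 0.05. Leaving out control sample 2 or 3 also took it below 1, to 0.97 and 0.93, as did testing without a filter and the fit of all 12 samples. Of all genes tested, 4.87% had a larger log2 fold change with iohexol. None of the other 9 genes rose with iohexol.

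DNAJB1 (ENSG00000132002, chr19:14514770-14529770, minus strand) encodes HSP40, a J protein that delivers substrates to HSP70. It stood at 135, 145 and 132 CPM in the control samples, 133, 120 and 116 CPM with iohexol, 173, 170 and 171 CPM with cisplatin and 249, 283 and 281 CPM with vancomycin. The vancomycin and cisplatin samples each lay apart from all other groups. DNAJB1 rose 1.93-fold with vancomycin (log2 fold change 0.95, SE 0.09, adjusted p = 2.08e-09) and 1.26-fold with cisplatin (log2 fold change 0.33, SE 0.06, adjusted p = 0.000142), and with iohexol its log2 fold change was -0.12 (95% interval -0.32 to 0.07). Of its exon bases, 5.75% overlap TECR on the opposite strand, and the strand setting of the counting is not given in the sources used here.

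BAG3 (ENSG00000151929, chr10:119651370-119677819, plus strand) encodes an HSP70 cochaperone that, with HSPB8, directs damaged proteins to autophagy. It stood at 74.6, 70.4 and 80.6 CPM in the control samples, 71.4, 71.2 and 63.3 CPM with iohexol, 114, 106 and 116 CPM with cisplatin and 150.1, 149.8 and 157 CPM with vancomycin. Cisplatin samples were above all control and iohexol samples and below all vancomycin samples. BAG3 rose 1.98-fold with vancomycin (log2 fold change 0.99, SE 0.09, adjusted p = 1.56e-09) and 1.51-fold with cisplatin (log2 fold change 0.59, SE 0.07, adjusted p = 1.42e-06), and with iohexol its log2 fold change was -0.09 (95% interval -0.31 to 0.12). No 31-base word of BAG3 occurred in another gene's transcripts.

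HSPB1 (ENSG00000106211, chr7:76302544-76304295, plus strand) encodes HSP27, a small heat shock protein that holds unfolded proteins without using ATP. It stood at 802, 834 and 804 CPM in the control samples, 671, 636 and 559 CPM with iohexol, 699, 744 and 742 CPM with cisplatin and 1045, 1220 and 1153 CPM with vancomycin. Both the iohexol and the cisplatin samples were below every control sample, and the vancomycin samples were above every other sample. HSPB1 rose by 0.45 on the log2 scale with vancomycin (SE 0.08, adjusted p = 5.43e-05), fell by 0.35 with iohexol (SE 0.09, adjusted p = 0.0131) and fell by 0.15 with cisplatin (SE 0.05, adjusted p = 0.0196). The iohexol call was lost without control sample 2 (adjusted p = 0.0637). The cisplatin call was lost without control sample 2, cisplatin sample 1 or cisplatin sample 3 (adjusted p 0.0595 to 0.113) and in a fit of all 12 samples (0.126), and library-size scaling turned its sign to 0.07.

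HSP90AA1 (ENSG00000080824, chr14:102080738-102139699, minus strand) encodes the inducible cytosolic HSP90. It stood at 1498, 1351 and 1255 CPM in the control samples, 1037, 939 and 1194 CPM with iohexol, 1484, 1522 and 1510 CPM with cisplatin and 1640, 1687 and 1498 CPM with vancomycin. Iohexol samples were below every other sample, while cisplatin and vancomycin samples overlapped the control group at its highest sample. HSP90AA1 fell by 0.34 with iohexol (SE 0.10, adjusted p = 0.0341) and rose by 0.15 with cisplatin (SE 0.06, adjusted p = 0.0368), and with vancomycin its log2 fold change was 0.20 (95% interval 0.02 to 0.38, adjusted p = 0.0523).

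These results for HSP90AA1 turned on single samples and settings. The iohexol call was lost without control sample 1 or 2 or iohexol sample 1 or 2 (adjusted p 0.0887 to 0.146) and with library size only (0.0791). The cisplatin call was lost without control sample 2 or 3 or any cisplatin sample (adjusted p 0.0723 to 0.207), without the filter on low counts (0.0568) and in a fit of all 12 samples (0.143). The vancomycin difference passed the test without control sample 1 (adjusted p = 0.00918) or vancomycin sample 3 (adjusted p = 0.0392), and with DESeq2 (0.0432), limma-voom (0.0344), a stricter filter (0.0378) and a fit of all 12 samples (0.0221).

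HSPD1 (ENSG00000144381, chr2:197486581-197516737, minus strand), the mitochondrial chaperonin, was the 1 gene of the 10 that fell with all 3 drugs, although with cisplatin the call was lost with library size only. It stood at 828, 779 and 731 CPM in the control samples, 580, 513 and 623 CPM with iohexol, 654, 664 and 666 CPM with cisplatin and 665, 724 and 634 CPM with vancomycin. All 9 drug samples were below the lowest control sample. HSPD1 fell by 0.41 on the log2 scale with iohexol (SE 0.09, adjusted p = 0.00787), by 0.22 with cisplatin (SE 0.06, adjusted p = 0.00254) and by 0.24 with vancomycin (SE 0.09, adjusted p = 0.0191). Under library-size scaling the cisplatin value was -0.003 (adjusted p = 0.965). The vancomycin call was lost without control sample 1 or 2 or vancomycin sample 1 or 3 (adjusted p 0.0519 to 0.127).

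HSPE1, which encodes HSP10, the lid of the same chaperonin, lies head to head with HSPD1 on the opposite strand. It stood at 47.8, 44.7 and 44.4 CPM in the control samples and 56.1, 72.2 and 53.2 CPM with vancomycin, with no overlap. HSPE1 rose by 0.37 on the log2 scale with vancomycin (SE 0.11, adjusted p = 0.00618), opposite in sign to HSPD1. Its log2 fold change was -0.16 with iohexol (95% interval -0.39 to 0.07) and -0.04 with cisplatin (95% interval -0.21 to 0.12). Of the exon bases of HSPD1, 6.62% overlap HSPE1, and 31.3% of its 31-base words occur in other genes.

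HSF1 (ENSG00000185122, chr8:144291591-144314722, plus strand), the transcription factor, stood at 103, 121 and 123 CPM in the control samples, 115, 115 and 96.6 CPM with iohexol, 138, 142 and 147 CPM with cisplatin and 180, 176 and 195 CPM with vancomycin. Cisplatin and vancomycin samples lay above all others and did not overlap each other. HSF1 rose by 0.64 on the log2 scale with vancomycin (SE 0.09, adjusted p = 2.01e-06) and by 0.32 with cisplatin (SE 0.07, adjusted p = 0.000801), and with iohexol its log2 fold change was -0.05 (95% interval -0.27 to 0.17). HSF1 is activated mainly at the protein level, which RNA does not show.

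The second question was where the drugs differed from each other, tested as contrasts in a fit of all 12 samples. Their doses are not matched, so a difference is between these treatments and not between the drugs at equal strength. Between vancomycin and iohexol, 9 of the 10 genes were higher with vancomycin and 1, HSPH1, was lower, where 29.0% of 17073 genes were higher and 27.6% lower. The log2 differences, vancomycin minus iohexol, were 1.89 for HSPA1A, 2.19 for HSPA1B, 1.13 for DNAJB1 and 1.14 for BAG3 (adjusted p from 1.01e-12 to 3.26e-10), and -0.44 for HSPH1 (SE 0.10, adjusted p = 0.00113). The difference for HSPD1, 0.23 (SE 0.08, adjusted p = 0.0212), was lost without iohexol sample 2 or vancomycin sample 2 (adjusted p = 0.131 and 0.102), in a fit of these 2 drugs only (0.0903) and with library size only (0.833).

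Between vancomycin and cisplatin, 8 of the 10 were higher with vancomycin and none lower, where 34.7% of genes were higher and 30.0% lower. The largest log2 differences were 1.94 for HSPA1B (SE 0.10) and 1.47 for HSPA1A (SE 0.10), and HSPA8 followed at 0.92 (SE 0.08, adjusted p = 5.28e-09). HSPD1 and HSP90AA1 did not pass, with log2 differences of 0.02 (95% interval -0.15 to 0.19) and 0.09 (95% interval -0.09 to 0.27). The difference for HSPH1, 0.27 (SE 0.10, adjusted p = 0.0245), was lost without cisplatin sample 2 or 3 or vancomycin sample 1 or 2 (adjusted p 0.0585 to 0.0742). This contrast depended most on scaling: with library size only, the median of all genes moved from 0.03 to -0.30, 5 of the 10 were higher and 2, HSP90AA1 and HSPD1, were lower, and 23.1% of all genes were higher and 45.8% lower. The differences for HSPH1, BAG3 and HSF1 were then -0.061, 0.10 and 0.03 (adjusted p = 0.603, 0.267 and 0.776) in place of 0.27, 0.44 and 0.36.

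Between cisplatin and iohexol, 8 of the 10 were higher with cisplatin and 2, HSPA8 and HSPH1, were lower, where 26.0% of genes were higher and 27.9% lower. Of the 8, BAG3 differed most, by a log2 difference of 0.71 (SE 0.08, adjusted p = 3.57e-07), and HSPH1 was lower by a log2 difference of -0.71 (SE 0.10, adjusted p = 7.54e-06). HSPA8 was lower at -0.45 (SE 0.08, adjusted p = 0.000113). The differences for HSPA1B, HSPB1 and HSPD1 were small, at 0.25, 0.22 and 0.21 (adjusted p = 0.0451, 0.0181 and 0.0369). Each was lost without any 1 of several samples: HSPB1 without iohexol sample 3 or cisplatin sample 2 or 3, HSPA1B without control sample 3, iohexol sample 2 or 3, any cisplatin sample or vancomycin sample 3, and HSPD1 without control sample 2, iohexol sample 1 or 2, any cisplatin sample or vancomycin sample 1 or 3 (adjusted p 0.051 to 0.214). With library size only, cisplatin and iohexol split all genes 33.1% to 23.1%, and vancomycin and iohexol 20.5% to 39.1%.

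The genes most like the DEGs among the 10 were sought over 10066 genes with a mean of at least 10 CPM, by the root mean square difference of log2 CPM over the 12 samples after centring on the control mean. Nearest to HSPA1A were RAB5IF (0.15), ZFP36 (0.16) and THOC6 (0.17), and nearest to HSPA1B were SMIM3 (0.16), MR1 (0.18) and MDK (0.18). The paralogs were 0.19 apart, HSPA1B being the tenth nearest to HSPA1A. Nearest to HSPH1 were AHI1 (0.10), HMGN5 (0.15) and BCO2 (0.19), and the nearest of the other 9 heat shock genes was HSF1, at 0.57, in place 1809.

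Other chaperone genes were described from 9 lists of 80 genes. With each drug 73 were tested against the control group, but TTC4 only with vancomycin and HSPB2 only with iohexol and cisplatin. Of the 73, 37 rose and 16 fell with vancomycin (29.0% and 28.8% of all genes). With cisplatin 44 rose and 9 fell (29.2% and 30.6%), and with iohexol 3 rose and 15 fell (11.2% and 9.77%). Counts in the single lists, of 3 to 16 genes each, are to be read beside the same shares. Their median log2 fold changes were 0.23, 0.26 and -0.11. With library size only, the counts were 33 and 20 with vancomycin, 57 and 5 with cisplatin and 5 and 11 with iohexol.

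**Figure D3:**
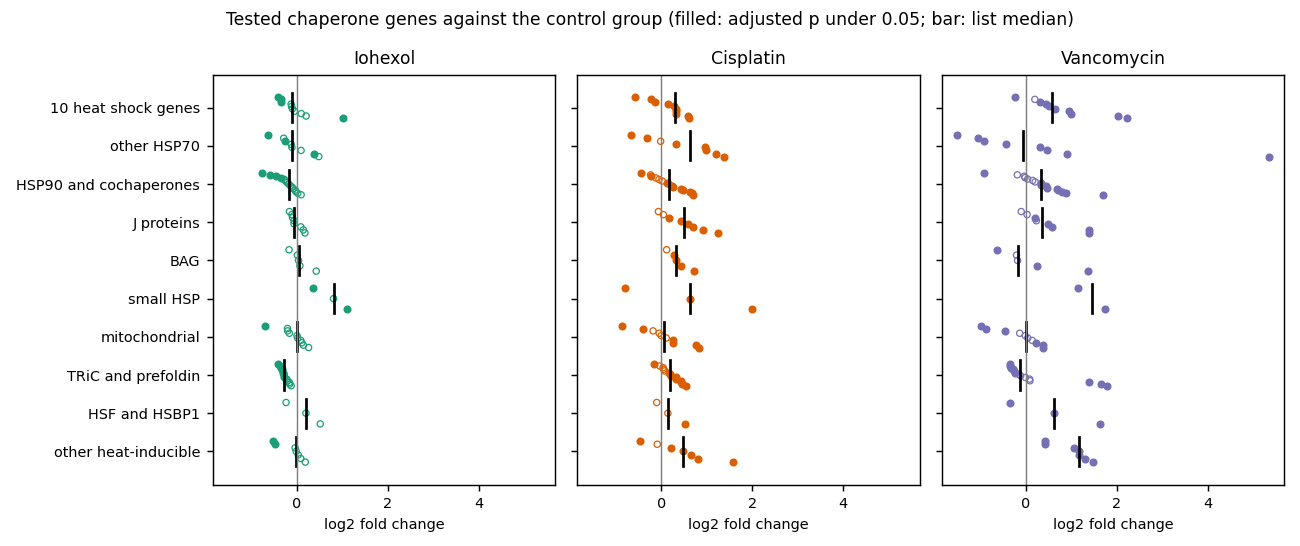
Log2 fold change against the control group (horizontal axes) of every tested gene in the 10 heat shock genes and 9 further lists, with iohexol, cisplatin and vancomycin. Filled points passed an adjusted p of 0.05, open points did not, and black bars are list medians. HSPA6 with vancomycin, at 5.34, is the point farthest to the right, and all 7 other heat-inducible genes lie to the right of 0 with vancomycin.

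HSPA6 encodes HSP70B′, a strictly inducible HSP70 with little expression in unstressed cells. Its raw counts were 11, 7 and 13 in the control samples, 11, 14 and 8 with iohexol, 23, 30 and 37 with cisplatin and 309, 522 and 539 with vancomycin. Every vancomycin sample was far above every other sample, and the cisplatin samples were above the control and iohexol samples. HSPA6 rose 40.6-fold with vancomycin (log2 fold change 5.34, 95% interval 4.80 to 5.88, adjusted p = 3.27e-14) and 2.59-fold with cisplatin (log2 fold change 1.38, 95% interval 0.60 to 2.15, adjusted p = 0.00365), and 0.126% of all genes had a larger log2 fold change with vancomycin. With iohexol its log2 fold change was 0.10, with an interval from -0.85 to 1.04 that low counts left wide. The control samples alone would not have carried HSPA6 past the filter on low counts, as control sample 2 had 7 counts. It passed with vancomycin and with cisplatin through the samples of those drugs, so these DEG calls are not evidence by themselves. The fold changes also rest on low control counts. In the iohexol comparison HSPA6 passed the filter without being raised. A window of HSP90AB1 held 4 matches of 2 units and 2 of 3 units, and the DNAJA1 window held 1 of 2 units. The HSPE1 and UBB windows held neither motif, which says only that these letters are not in those bases. The HSPD1 stretch with matches (chr2:197500063-197500090) lies close to the HSPE1 window (chr2:197500129-197500378) but outside it. HSP90AB1, DNAJA1, HSPE1 and UBB all rose with vancomycin, and HSP90AB1 fell with iohexol and cisplatin. Whether matches go with the changes was not tested. The HSPA6 window held 3 matches of 2 units, 2 of them within 1 match of 3 units (chr1:161524342-161524496, plus strand).
HSPA6: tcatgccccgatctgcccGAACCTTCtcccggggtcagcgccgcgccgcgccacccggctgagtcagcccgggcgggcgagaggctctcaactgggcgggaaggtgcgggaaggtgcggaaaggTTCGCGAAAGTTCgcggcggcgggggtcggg
HSPA6 shares 56.6% of its 31-base words with HSPA7, which had 0 to 2 counts in every sample.

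The list of other HSP70 genes has 8 members, HSPA6 included, and moved both ways. With vancomycin 4 of the 8 rose and 4 fell, and HSPA4L (log2 fold change -1.04) and HSPA12A (-1.50) were down-regulated DEGs. With cisplatin 5 rose and 2 fell, and HSPA2, best known from the testis, rose 2.30-fold. With iohexol 1 rose and 2 fell, HSPA12B the most at -0.62 (SE 0.15, adjusted p = 0.0109).

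**Figure D4:**
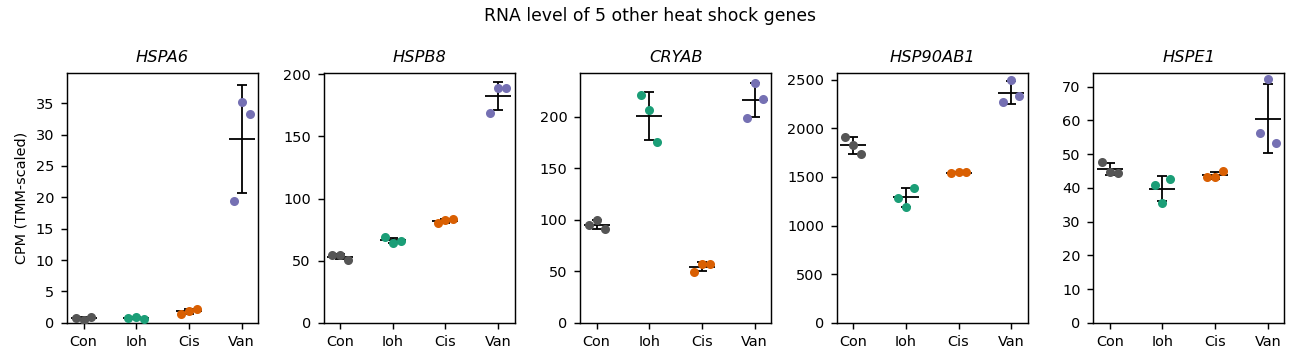
RNA level in CPM (vertical axes, each from 0) of HSPA6, HSPB8, CRYAB, HSP90AB1 and HSPE1 in the 3 samples of the control (Con), iohexol (Ioh), cisplatin (Cis) and vancomycin (Van) groups, with group mean (bar) and SD (error bar). HSPA6 reaches 19.4 to 35.2 CPM with vancomycin and stays at or below 2.20 CPM elsewhere, and CRYAB is high with iohexol and vancomycin and low with cisplatin.

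Small heat shock proteins included DEGs with iohexol and vancomycin. With cisplatin the only DEG call among them was that of HSPB2, on low counts, which is not evidence by itself. CRYAB, αB-crystallin, stood at 94.6, 99.7 and 91.0 CPM in the control samples, 221, 206 and 175 CPM with iohexol, 49.2, 57.3 and 56.9 CPM with cisplatin and 199, 232 and 217 CPM with vancomycin. Iohexol and vancomycin samples overlapped each other and lay far above the control group, and the cisplatin samples lay far below it. CRYAB rose by 1.12 with iohexol (SE 0.10, adjusted p = 1.39e-05) and by 1.15 with vancomycin (SE 0.09, adjusted p = 1.05e-10) and fell by 0.79 with cisplatin (SE 0.07, adjusted p = 7.76e-08). CRYAB was the 1 DEG of these lists with iohexol.

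HSPB8, the partner of BAG3, stood at 54.8, 54.4 and 50.6 CPM in the control samples, 68.8, 64.4 and 65.5 CPM with iohexol, 79.9, 82.5 and 83.2 CPM with cisplatin and 169, 189 and 189 CPM with vancomycin. Its 4 groups did not overlap. HSPB8 rose by 0.35, 0.64 and 1.74 with iohexol, cisplatin and vancomycin (adjusted p = 0.0179, 4.79e-07 and 9.66e-14). HSPB2, a muscle-associated small heat shock protein, rose with cisplatin on low counts, 44, 31 and 22 against 2, 12 and 8 (log2 fold change 1.99, SE 0.45, adjusted p = 0.000956), and shares transcript sequence with CRYAB. It passed the filter there through the cisplatin samples, so its DEG call is not evidence by itself. With vancomycin HSPB2 was not tested. CRYAA, HSPB3, HSPB6, HSPB7 and HSPB9 did not pass the filter in any comparison with the control group.

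HSP90AB1, the constitutive cytosolic HSP90, stood at 1908, 1830 and 1737 CPM in the control samples, 1285, 1195 and 1387 CPM with iohexol, 1536, 1546 and 1545 CPM with cisplatin and 2266, 2500.3 and 2330 CPM with vancomycin. The iohexol and cisplatin samples were below every control sample and the vancomycin samples above. HSP90AB1 fell by 0.46 with iohexol (adjusted p = 0.00173) and by 0.23 with cisplatin (adjusted p = 0.000807) and rose by 0.34 with vancomycin (adjusted p = 0.00088). Of the 16 HSP90 genes and cochaperones, 4 fell and none rose with iohexol, 8 rose and 2 fell with cisplatin, and 9 rose and 1 fell with vancomycin. FKBP5, an HSP90-bound immunophilin, fell by 0.77 with iohexol and by 0.93 with vancomycin and rose by 0.27 with cisplatin, while AHSA1, the activator of HSP90 ATPase, rose by 0.69 with cisplatin and by 0.88 with vancomycin. TTC4, an HSP90 cochaperone, had 25, 20 and 15 counts with vancomycin against 5, 7 and 5 (log2 fold change 1.69, SE 0.46). Against the control group it passed the filter on low counts only with vancomycin, through the vancomycin samples. Its call as an up-regulated DEG is therefore not evidence by itself.

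J proteins rose with cisplatin and vancomycin and none passed with iohexol. DNAJA1, a J protein of the cytosol, rose by 0.43 with cisplatin (SE 0.07) and by 0.57 with vancomycin (SE 0.10), and its log2 fold change with iohexol was -0.06 (95% interval -0.28 to 0.16). DNAJB2 and DNAJB5 were up-regulated DEGs with vancomycin, each at 1.40 (SE 0.10 and 0.14), and DNAJB4 was one with cisplatin at 1.24 (SE 0.08). Of the 8 tested, 6 rose with cisplatin, 5 rose with vancomycin, and none fell with either.

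BAG proteins, the exchange factors related to BAG3, rose in 4 of 5 with cisplatin and in 2 of 5 with vancomycin, the latter near the share of all genes. BAG1 rose by 1.36 with vancomycin (SE 0.12, adjusted p = 8.74e-10) and by 0.32 with cisplatin, and BAG4 fell by 0.63 with vancomycin. None of the 5 passed with iohexol.

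Of 14 genes of the folding machinery for nascent proteins, the TRiC chaperonin and prefoldin, 3 rose and 6 fell with vancomycin. Over all genes 29.0% rose and 28.8% fell, and counts this small are not far from those shares. PFDN2, PFDN5 and PFDN6 rose by 1.79, 1.39 and 1.66 and were DEGs (SE 0.12, 0.09 and 0.18), while 6 of the 14 genes fell, among them TCP1 by 0.28 and CCT6A by 0.35. With iohexol 6 of 14 fell and none rose, PFDN1 by 0.40 the most. With cisplatin 9 of 14 rose and 1 fell.

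Mitochondrial chaperones and proteases other than HSPD1 moved both ways. TRAP1, the mitochondrial HSP90, fell by 0.70 with iohexol (SE 0.12) and by 0.99 with vancomycin (SE 0.11), and GRPEL2 fell by 0.87 with vancomycin. With cisplatin LONP1, a matrix protease, fell by 0.86 (SE 0.07) and GRPEL1 rose by 0.84 (SE 0.07). Of the 10, 3 rose and 3 fell with vancomycin, 4 rose and 2 fell with cisplatin, and none rose and 1 fell with iohexol. The vancomycin counts are near the shares of all genes, as is the 1 that fell with iohexol.

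HSF2 fell by 0.34 with vancomycin (SE 0.11, adjusted p = 0.0126), HSBP1, which binds HSF1 and limits its activity, rose by 0.61 (SE 0.10), and HSF4, a lens heat shock factor, rose by 1.64 (SE 0.15). HSF4 also rose by 0.52 with cisplatin, and none of the 3 passed with iohexol.

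All 7 further heat-inducible genes rose with vancomycin, where 29.0% of all genes tested rose. Like the other lists, this list was chosen with earlier results of these data known. IER5, an HSF1 partner, rose by 1.31, ZFAND2A, the arsenite-inducible AIRAP, by 1.17, SERPINH1, the collagen chaperone HSP47, by 1.16, and DEDD2 by 1.06, all as DEGs, while UBB and MRPL18 rose by 0.42 and 0.43. With cisplatin 5 rose, IER5 the most at 1.57 (SE 0.08), and SERPINH1 fell by 0.47. With iohexol none rose, and SERPINH1 and IER5 fell by 0.49 and 0.53.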

How the data were processed

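The authors deposited 1 table of read counts for 58735 genes in 12 samples, whole numbers per gene that were not normalized. The submitters' processing notes name CASAVA 1.8, fastp, HISAT2 2.0.5, featureCounts 1.5.0-p3 and DESeq2 1.20.0. Libraries were made from poly-A RNA without molecular identifiers, so reads are not independent molecules. SEs, intervals and p-values come from the edgeR fits and reflect the spread between samples. The strand setting and the handling of multi-mapped reads are not given in the sources used here. Gene positions equalled those of GENCODE release 29 (GRCh38) for 58724 genes, including all 10 described here.

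Counts were tested with edgeR 4.0.16 (quasi-likelihood F test, TMM factors, filterByExpr with a minimum count of 10 and a total of 15, Benjamini-Hochberg adjustment over all genes tested) in R 4.3.3. Each drug was fitted with the control group (6 samples), and drugs were compared in a fit of 12 samples. The study's text names limma, which was run as an alternative through voom because the values are counts. Changed means an adjusted p under 0.05, and a DEG also has a log2 fold change above 1 or below -1. Intervals are 95%. The counts of replicates differed by more than sampling noise in all pairs. Scripts were tested on simulated data.

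The 10 genes and all lists were chosen with earlier results of these data known. The genes named are the 10, the DEGs of the lists, up to 3 genes a list with the largest change among those that passed, and HSP90AB1, HSPE1, HSPA6, DNAJA1 and CRYAB. Genes named beyond this rule (UBB, MRPL18, HSF2, HSBP1, TCP1, CCT6A, PFDN1, GRPEL1, BAG4) were chosen after their values were seen, and 1 gene that the rule names is not reported here. The symbol HSPA14 stands on 2 rows, and the row with that name's current identifier was used. Alternatives were DESeq2 1.42.0, limma-voom 3.58.1, RLE factors, library size only, other filters, a replicate block, other sample sets, HSPA1A and HSPA1B summed, and leaving out each sample. Promoter windows came from RefSeq (GRCh38.p14).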

Additional observations from a re-analysis of the deposited data

How the results depend on the processing

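Of 1104 values of single genes under the alternatives, 1038 kept their side of the threshold, 53 lost the call and 9 gained it with the same sign, and 4 with a call changed sign. Another 8 values near 0, of HSF1, HSPA1B and HSPD1, changed sign with no call under either setting. The 4 came with library size only: HSPB1 with cisplatin (0.073) and, between vancomycin and cisplatin, HSPH1 (-0.061), HSP90AA1 (-0.25) and HSPD1 (-0.31). With that scaling 1 of the 10 genes fell with cisplatin, 5 were higher and 2 lower between vancomycin and cisplatin, and of the other chaperone genes 5 rose with iohexol and 5 fell with cisplatin. Leaving out 1 sample gave ranges of 1 to 2 rising and 1 to 3 falling with iohexol, 6 to 7 rising and 2 to 3 falling with cisplatin, and 8 to 9 rising and 0 to 1 falling with vancomycin. It gave 5 to 8 higher and 2 lower between cisplatin and iohexol, 8 to 9 higher and 1 lower between vancomycin and iohexol, and 7 to 8 higher and 0 lower between vancomycin and cisplatin. Same-numbered samples showed little shared deviation (correlations -0.18 to 0.10 over 18 pairs). These are deviations from means of 3 samples, so they cannot exclude that the numbers pair samples. With a replicate block the iohexol calls went from 3 falling to 2 (HSP90AA1, adjusted p = 0.066) and the vancomycin calls from 8 rising to 9 (HSP90AA1, adjusted p = 0.0156). Those between cisplatin and iohexol went from 8 higher to 6. Over all genes the block took the calls with iohexol from 3283 to 2096, with cisplatin from 9500 to 9769 and with vancomycin from 9158 to 9679. HSPA1A, HSPA1B, HSPA8, HSPH1, DNAJB1, HSPB1, BAG3 and HSF1 rose with vancomycin under every alternative run. The cause of the changes was not tested. With 3 samples a group, small differences such as those of HSP90AA1 stay near the threshold.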
